A study of Mus musculus with 18 samples.

Results

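The probes described here were those whose signal was higher in the digit tips of Fzd6-deficient mouse embryos than in wild type at E18.5, the last stage sampled, and near wild type at the stages before it. They numbered 123 of the 42006 probes on the array. Each was chosen on the log2 ratio of sample over reference signal, averaged over the 3 arrays of a group. The mean of the knockout (KO) at E18.5 had to lie at least 1 log2 unit (2-fold) above that of the wild type (WT). The KO and WT means had to lie within 0.5 of each other at E14.5 and at E16.5, and the WT mean could not fall by 1 or more after E16.5. The probe also had to be well above background in the sample channel on all 3 KO E18.5 arrays, by the scanner software's own mark, which 24631 probes were. The E18.5 difference between genotypes therefore chose the probes, and it is given below as a description, with no test.

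Fzd6 encodes a Frizzled receptor, one of the cell-surface proteins that bind Wnt ligands. Frizzled6 is known chiefly for its part in planar cell polarity, by which cells of an epithelium and their hairs take a common orientation, and mice and people that lack it have malformed claws or nails. The claw or nail plate forms at the digit tip from a specialised epidermis, the matrix, whose cells keratinise as they move outwards.

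RNA was taken from forelimb digit tips of C57BL/6 embryos, wild type or Fzd6-/-, aged E14.5 (embryonic days), E16.5 or E18.5. The embryos came from crosses of heterozygous mice, so the KO lacked Fzd6 in every tissue and throughout development. The sex was given as mixed. There were 3 embryos per genotype and stage, 1 array each, in 6 groups and 18 arrays. The sample RNA carried the dye Cy3. The dye Cy5 marked one reference RNA on every array, a pool from 11 mouse cell lines to which RNA of 129ES stem cells had been added. A digit tip holds epidermis, mesenchyme, bone, vessel and nerve, and in such bulk RNA a change in the number of cells of a type cannot be told apart from a change in RNA per cell.

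No column or table used here pairs the probes with genes. Each probe is therefore identified by its ID and sequence, so neither the deleted transcript nor markers of digit-tip cell types could serve as a check on the labels. The Cy3 signal was well above background at 59.8% to 69.2% of all probes, depending on the array. Arrays of a group correlated at r = 0.957 to 0.988 across probes. The array least like its group was WT E18.5 replicate 3, where 259 probes exceeded both other arrays by 1 log2 or more and 257 fell short of both by as much. At E18.5 no slide held both genotypes, so slide and genotype cannot be told apart at that stage. Replicates 1 and 2 of every group were scanned in a first batch and replicate 3 in a second.

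The sequences of the probes on which the results turn are given 5′ to 3′ as deposited. Among the 123, 2 pairs of probes overlapped by 20 bases or more, and 4 other members overlapped a probe that did not meet the rule. Such pairs can read the same transcript and are not independent of each other. In the following 4 pairs the shared stretch is in capitals.
Z00049101-1: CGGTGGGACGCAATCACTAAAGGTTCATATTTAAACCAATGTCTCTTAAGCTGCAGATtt
Z00054196-1: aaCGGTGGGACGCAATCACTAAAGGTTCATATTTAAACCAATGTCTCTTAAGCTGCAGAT
Z00023560-1: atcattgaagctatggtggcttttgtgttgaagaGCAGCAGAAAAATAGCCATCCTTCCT
Z00074307-1: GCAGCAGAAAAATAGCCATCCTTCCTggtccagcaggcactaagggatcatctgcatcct
Z00075430-1: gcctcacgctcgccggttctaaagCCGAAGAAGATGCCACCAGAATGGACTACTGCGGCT
Z00048934-1: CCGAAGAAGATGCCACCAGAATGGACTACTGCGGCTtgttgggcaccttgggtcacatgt
Z00070210-1: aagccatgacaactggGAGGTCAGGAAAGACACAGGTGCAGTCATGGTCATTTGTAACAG
Z00028397-1: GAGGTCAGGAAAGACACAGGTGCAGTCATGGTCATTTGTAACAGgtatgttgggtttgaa
A further 8 probes, with no letters in capitals, are shown because their values are described in full below. The first 5 separated the genotypes by wide gaps at E18.5, the next owed its difference to the reference channel, and the last 2 changed between E14.5 and E16.5.
Z00024604-1: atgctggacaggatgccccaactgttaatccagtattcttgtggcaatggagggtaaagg
Z00024118-1: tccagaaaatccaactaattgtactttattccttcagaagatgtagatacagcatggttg
Z00030503-1: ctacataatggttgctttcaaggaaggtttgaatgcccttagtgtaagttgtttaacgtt
Z00031007-1: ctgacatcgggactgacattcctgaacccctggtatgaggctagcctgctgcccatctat
Z00048214-1: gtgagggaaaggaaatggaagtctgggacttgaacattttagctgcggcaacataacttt
Z00037735-1: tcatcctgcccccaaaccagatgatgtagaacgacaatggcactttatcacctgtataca
Z00020374-1: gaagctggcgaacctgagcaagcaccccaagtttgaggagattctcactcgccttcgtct
Z00022712-1: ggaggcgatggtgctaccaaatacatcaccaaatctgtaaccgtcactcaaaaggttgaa

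The median GC content of the 123 was 45%, that of the 24631 probes well above background in KO E18.5 was also 45%, and that of all probes on the array was 43.3%. The letters AATAAA, the common polyadenylation signal found near the 3′ end of messenger RNAs, occurred on the given strand of 8 members (6.5%) and of 7.88% of the 24631. The reverse complement TTTATT occurred in 6 members (4.88%) and in 3.21% of the 24631. No member shared 30 bases with a RefSeq promoter window (GRCm38.p6).

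At E18.5 the typical difference was slightly over 2-fold. The median KO minus WT difference was 1.16 log2, a 2.24-fold ratio, with quartiles of 1.08 and 1.46. In 28 members it was at least 1.5 and in 6 at least 2. Of the 24631 probes, 728 (2.96%) had a KO mean at least 1 above WT at E18.5, and the 123 were 16.9% of these. The other criteria removed 375 of the 728 for a difference at E14.5, 379 for one at E16.5 and 225 for a fall of the wild type, with overlap between these. The KO arrays lay above all WT arrays in 110 of the 123 (89.4%), against 15.3% of the 24631, which the rule's own threshold largely sets.

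By array, with each probe centred on its mean over the 18 arrays, the median of the 123 was 1.00, 0.77 and 0.67 on KO E18.5 replicates 1, 2 and 3. On the WT E18.5 arrays it was -0.52, -0.19 and -0.70. The 6 arrays of E14.5 lay between -0.20 and 0.00. Those of E16.5 lay between -0.34, on KO replicate 2, and 0.17, on KO replicate 1. High KO and low WT medians at E18.5 follow from the rule, and the lowest of the 18 medians was that of WT E18.5 replicate 3.

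The probes were dim. After each array's Cy3 signals were centred on the median of all probes, the median member lay at 0.73 log2 in KO E18.5 and at -0.38 in WT E18.5. The 24631 probes as a whole lay at 3.03 and 2.99. Of the 123, 82 were well above background on all 18 arrays, and 12 reached that level on 3 of 3 arrays in KO E18.5 and in no other group. In WT E18.5 the full 3 arrays were well above background for 89 members, 2 arrays for 20, 1 for 8 and none for 6. The members also varied more between arrays of a group, where variation of embryos and of arrays cannot be told apart. Their median SD over 3 arrays was 0.40 in WT E18.5 and 0.32 in KO E18.5, against 0.20 and 0.17 for the 24631.

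The gap between the lowest KO and the highest WT array at E18.5 was ranked among members that met the rule also without WT E18.5 replicate 1, and the first 15 are described here. The widest gap was at Z00024604-1. Its log2 ratios were 3.32, 1.82 and 1.89 on KO replicates 1, 2 and 3 and -0.48, -0.69 and 0.03 on the WT ones. The KO exceeded the WT mean by 2.73 log2, or 6.62-fold, and KO replicate 1 was far above its fellows. At E14.5 the same probe had measured 0.07 ± 0.06 (SD, n = 3) in KO and 0.24 ± 0.09 in WT, and at E16.5 0.58 ± 0.24 and 0.44 ± 0.74. The genotypes lay close to each other at E14.5 and E16.5, as the rule requires, and all 3 KO E18.5 arrays lay above every earlier array.

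Several probes separated the genotypes with little spread. Z00005843-1 measured -0.03, 0.07 and 0.13 in KO and -1.68, -1.76 and -1.51 in WT. Z00031007-1 measured 0.04, 0.14 and 0.02 in KO and -1.40, -1.47 and -1.79 in WT. In both, each genotype kept to a narrow band, and the KO means were 3.26-fold and 3.06-fold those of the wild type. Z00052830-1 gave 1.27, 1.28 and 1.30 in KO against 0.04, 0.17 and -0.06 in WT, a ratio of 2.35. Z00030503-1 gave 0.65, 0.19 and 0.52 in KO against -1.26, -1.59 and -1.31 in WT, a ratio of 3.58. For these 4 probes the E18.5 difference was larger than the SD of either genotype by several times, and all were well above background on all 18 arrays. The rule chose on that difference and the ranking on the gap between arrays. Together they favour a large difference and a small SD, so this is only a description.

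In other probes KO replicate 1 stood above the other KO arrays. Z00048214-1 measured 1.49, -0.22 and -0.27 in KO and -1.72, -2.02 and -1.62 in WT. Z00042308-1 measured 2.37, 1.13 and 1.42 in KO and -0.31, -0.10 and 0.01 in WT. In each, KO replicate 1 was the high array, and without it the difference was 1.54 for Z00048214-1 and 1.41 for Z00042308-1.

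WT replicate 3 was the low array in others of the 15, among them Z00075369-1 and Z00025461-1. Z00075369-1 gave 2.21, 2.26 and 2.38 in KO against 0.91, 0.73 and 0.20 in WT. Z00025461-1 gave 1.21, 0.91 and 0.32 in KO against -1.20, -0.92 and -1.76 in WT. Without WT replicate 3 the differences were 1.46 and 1.87. Both were well above background on 2 of the 3 WT arrays.

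Some of the 15 were near background before E18.5. Z00024118-1, Z00007630-1, Z00051461-1 and Z00072043-1 were not well above background on any array at E14.5 or E16.5. At E18.5 Z00024118-1 measured -0.50, -0.87 and -0.91 in KO and -3.10, -2.38 and -4.64 in WT, where 1 of 3 arrays was well above background. Z00007630-1 measured 3.61, 3.63 and 4.51 in KO against 2.11, 2.55 and 1.81 in WT. Z00051461-1 measured 1.45, 0.82 and 1.22 against -0.75, -0.17 and -1.18. For these last 2 probes 2 of the 3 WT arrays were well above background, and the KO mean exceeded the WT mean by 1.76 and 1.86 log2. Z00072043-1 gave 2.82, 2.79 and 2.71 in KO and 1.76, 1.29 and 1.60 in WT. Its spread was small in both, but no WT array was well above background.

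In WT E18.5, 6 probes were not well above background on any array, so that only a lower bound can be given for their ratio. With the wild type set to the lowest normalized Cy3 signal among probes well above background, or to its own signal where that was higher, KO was at least 1.24-fold higher at Z00072043-1 and at Z00020689-1. The bound was 1.27-fold at Z00041726-1, 1.26-fold at Z00063315-1 and 1.06-fold at Z00023560-1, and there was none for Z00025099-1. Dyes were not swapped, so these bounds are open to dye bias. Z00023560-1 had the largest difference of all 123 in log2 ratio, 2.96, against a wild-type signal not well above background, with -2.57, -1.96 and -2.12 in KO and -4.41, -5.23 and -5.89 in WT. Among probes measured in the wild type on all 3 arrays the largest was Z00024604-1.

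Overlapping probes can read the same transcript, though none was mapped to one here. Z00049101-1 and Z00054196-1 share 58 bases, and their KO minus WT differences were 1.39 and 1.47 log2. Z00054196-1 measured 2.23, 1.29 and 2.19 in KO and 1.02, 0.82 and -0.53 in WT. Z00049101-1 followed it array by array, with 1.93, 1.28 and 1.89 in KO and 0.87, 0.72 and -0.66 in WT. Without WT replicate 3 both fell below the rule's threshold of 1, to 0.99 for Z00054196-1 and 0.91 for Z00049101-1. Z00023560-1 and Z00074307-1 share 26 bases. The first was not well above background in WT E18.5, so the sizes of their differences are not compared. In Z00074307-1, with a difference of 1.24, the KO arrays measured -2.81, -2.05 and -2.31 and the WT arrays -2.91, -3.89 and -4.10, so KO replicate 1 and WT replicate 1 were nearly level.

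Among the 4 partners that did not meet the rule, all were higher in KO at E18.5. Z00048934-1, which shares 36 bases with Z00075430-1, differed by 0.98 against 1.34 for the member, and missed the threshold narrowly. Z00075430-1 itself gave -0.50, -1.02 and -0.99 in KO and -2.01, -2.13 and -2.40 in WT. Z00043645-1 differed by 1.31 at E18.5, more than the 1.05 of its partner Z00018335-1, and was left out because its KO minus WT difference at E14.5 was -0.59. Z00074787-1 differed by 0.60. Its partner Z00020689-1, at 1.14, was not well above background on any WT E18.5 array, so the sizes are not compared. Z00028397-1 differed by 0.96 and its partner Z00070210-1 by 1.29, but these did not go together by array. Z00070210-1 measured 4.58, 2.87 and 4.75 in KO, where Z00028397-1 measured 3.28, 4.78 and 4.05. KO replicate 2 was the lowest of the 3 by the first probe and the highest by the second, although they share 44 bases.

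In many of the 123 a single E18.5 array stood off its group. WT E18.5 replicate 3 was at least 0.5 log2 below both other WT arrays in 33 members (26.8%), and in 5.79% of the 24631 probes. KO E18.5 replicate 1 was at least 0.5 above both other KO arrays in 29 (23.6%), against 2.35% of the 24631. WT replicate 2 stood as far above its fellows in 25, against 3.37%. Only Z00020377-1 belonged to both of the first 2 sets, and 62 members to neither. Because a high KO array or a low WT array raises the very difference that chose the probes, an excess over the 24631 follows in part from the rule.

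Of the single arrays left out, the same WT array cost the most members. Without WT E18.5 replicate 3, 73 of the 123 kept a difference of at least 1 and 69 kept the whole rule. Without WT replicate 1 these numbers were 104 and 98, and without WT replicate 2 they were 116 and 101. Without KO replicate 1, 2 or 3 the whole rule was kept by 101, 110 and 111. The 25 members lost without WT replicate 1 comprised 19 whose difference fell below 1 and 6 whose wild-type fall after E16.5 reached 1, and 40 other probes then met the rule. Whichever E18.5 array was left out, 51 members kept a difference of at least 1 and 43 kept the rule. With each of all 18 arrays left out in turn 17 kept it, among them Z00005843-1, Z00037735-1, Z00042308-1, Z00048214-1, Z00052830-1 and Z00075430-1. For 3 of the 17, Z00048632-1, Z00071881-1 and Z00072043-1, no array at E14.5 or E16.5 was well above background, so at those stages the rule compared background with background.

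The order of arrays was also counted in groups that did not define these sets. In the 29 probes with a high KO E18.5 replicate 1, WT E16.5 replicate 2 was the highest of its group in 27, against 18 of the 62 members outside both sets and 31.7% of the 24631. It was at least 0.5 above both other WT E16.5 arrays in 17 of the 29, against 2.96% of the 24631. Z00024604-1 shows this, with 0.42, 1.19 and -0.28 in WT E16.5, as does Z00048214-1, with -1.45, -0.61 and -1.63. In the 33 probes with a low WT E18.5 replicate 3, KO E16.5 replicate 2 was the lowest of its group in 26 (78.8%), but it was also the lowest in 44 of the 62 outside both sets (71%) and in 85 of all 123 (69.1%), against 40.9% of the 24631. In the 33 it was at least 0.5 below both others in 17, against 5.05% of the 24631. Z00075369-1 gave 1.56, 0.20 and 1.17 there. Taken as medians over the first set, KO E18.5 replicate 1 lay 0.73 above its group's mean and WT E16.5 replicate 2 lay 0.50 above its own. In the second set WT E18.5 replicate 3 lay at -0.62 from its group's mean and KO E16.5 replicate 2 at -0.37. In the 62 members outside both sets these 4 deviations were -0.01, -0.06, -0.24 and -0.23. These sets were picked after their values had been seen, and the order within groups was not tested. At E16.5 the median SD of the 123 was 0.40 in WT and 0.30 in KO, against 0.19 and 0.16 for the 24631. A fixed cut of 0.5 is therefore easier for members to reach than for the 24631.

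The difference lay in the sample channel for most members. With each channel centred on its array's median, the median KO minus WT difference at E18.5 was 1.25 log2 in Cy3 and -0.02 in Cy5, and 97 members differed by at least 1 in Cy3. The reference RNA was meant to be the same on every array, and 90 members had Cy5 differences within 0.25. In 5 members the Cy3 difference was under 0.5 and the log2 ratio rested on a lower reference signal in KO. One of these, Z00037735-1, was among the 15 with wide gaps. Its ratios were 1.41, 1.60 and 1.28 in KO and 0.22, 0.25 and 0.21 in WT, yet the KO minus WT difference was -0.25 in Cy3 and -1.46 in Cy5. Z00032202-1, Z00070210-1, Z00022925-1 and Z00034329-1 were the others, with Cy3 differences of -0.47, 0.10, 0.37 and 0.38. Z00056663-1 also had a lower reference signal in KO, with differences of 0.77 in Cy3 and -1.58 in Cy5. The Cy5 signal was more than 0.5 higher in KO in 10 members. In Z00020374-1, which is among them, the Cy3 signal was 3.05 higher and the Cy5 signal 2.01 higher.

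The course after E16.5 shows where the genotypes parted, although the rule fixes it in part. The KO mean rose by at least 0.5 log2 from E16.5 to E18.5 in 89 members (72.4%), against 15.9% of the 24631. The WT mean fell by at least 0.5 in 57 (46.3%), against 14%. In 60 members KO rose and WT did not fall, in 28 WT fell and KO did not rise, in 29 both happened, and in 6 neither change reached 0.5. The median change was 0.81 in KO and -0.47 in WT. The KO E18.5 mean was the highest of the 6 group means in 107 members, and the WT E18.5 mean was the lowest in 74. Since the probes had to be level at E16.5 and apart at E18.5, the gap between the changes is set by the rule. How the gap divides between KO and WT is set in part as well, since the rule limits the WT fall but not the KO rise. That limit was reached by 225 of the 728 probes with the E18.5 difference. The division is therefore only a description of the probes chosen.

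Single probes, all well above background on all 18 arrays, show these courses. In Z00030503-1 the genotypes moved apart both ways, with KO going from -1.10 ± 0.47 (SD, n = 3) to 0.45 ± 0.24 and WT from -0.87 ± 0.14 to -1.39 ± 0.18. Z00052830-1 rose in KO from 0.37 ± 0.16 to 1.28 ± 0.02, and its WT mean went from 0.51 ± 0.09 to 0.05 ± 0.12, a change of -0.46 that stays under the limit of 0.5. In Z00013065-1 KO stayed level, at -0.42 ± 0.20 and then -0.44 ± 0.02, while WT went from -0.83 ± 0.44 to -1.68 ± 0.32. Z00022712-1 stood at 2.46 ± 0.49 in KO and 2.01 ± 0.31 in WT at E14.5. It was lower in both at E16.5 (1.21 ± 0.82 and 0.90 ± 0.11), and at E18.5 it was 2.09 ± 0.40 in KO and 0.56 ± 0.50 in WT. In that probe the KO E18.5 level lay near that of both genotypes at E14.5.

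In 14 members the wild type itself rose by at least 0.5 after E16.5, and KO rose further, as the rule requires. Of these, 10 rose by at least 1 in WT, and the same 10 rose by 2.23 to 4.32 in KO, with E18.5 differences of 1.22 to 2.61. In 9 of the 10 no WT E16.5 array was well above background, so the sizes of these rises are not firm. Z00031896-1 was the exception, well above background on all 3 WT arrays at both stages, with changes of 2.35 in WT and 4.24 in KO. It measured 2.79, 3.03 and 2.98 in KO E18.5 and 1.16, 1.87 and 1.01 in WT E18.5, above all arrays of E16.5, whose highest in either genotype was -0.56.

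The step from E14.5 to E16.5 is no contrast of the rule and was tested with limma over 27991 probes, with Benjamini-Hochberg adjustment and a threshold of 0.05. In KO, 9 members were higher at E16.5 and 6 lower, 15 in all (12.2%), where 29.5% of all tested probes were called, 13.3% higher and 16.3% lower. In WT, 16 were higher and 9 lower, 25 in all (20.3%), where 34.3% of all probes were called, 13.8% higher and 20.5% lower. Of the 123, 12 entered the test only through KO E18.5, where the rule makes them high, and none of these was called in either genotype. Among probes well above background on 3 of 3 arrays at either stage in the genotype tested, 15 of 110 members were called in KO (13.6%, against 30.1% of all such probes) and 24 of 107 in WT (22.4%, against 35.5%). Over all 123 the median change was 0.08 in KO and -0.07 in WT, against -0.08 and -0.10 over all tested probes. The members' standard errors were larger, with a median of 0.29 against 0.17, and a median absolute change of 0.23 in KO and 0.34 in WT stood against 0.29 and 0.33 over all probes. Of the called members 14 were called in both genotypes with the same sign, 9 up and 5 down, which the rule favours by holding the genotypes together at both stages. KO E14.5 and KO E16.5 arrays lay on different slides, so slide and stage cannot be told apart in KO, while WT E14.5 and WT E16.5 arrays shared slides. The WT E16.5 mean entered the rule through the limit on the fall after it. With Cy3 alone 23 members were called in KO, with median centring the split in KO was 11 higher and 4 lower, and with normexp and loess 14 were called in WT.

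The 3 largest rises called in KO were also called in WT. Z00075498-1 measured -2.78, -3.17 and -2.73 in KO at E14.5 and -0.76, -1.67 and -0.61 at E16.5, a change of 1.88 ± 0.30 (SE) with a limma adjusted p of 2.62e-04. All 3 later arrays lay above the earlier ones, and in WT the change was 1.29 ± 0.30 (limma adjusted p = 0.00417). Z00054196-1 went from -0.97, 0.04 and -1.20 to 1.20, 0.54 and 1.68 in KO, a change of 1.84 ± 0.46 (limma adjusted p = 0.00758). Z00020374-1 was not well above background on any KO E14.5 array and measured 2.42, 1.76 and 1.23 at E16.5, at least 1.36-fold higher, with a limma adjusted p of 2.21e-04. That call was lost with normexp background correction and loess (limma adjusted p = 0.221).

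The 3 largest falls called in KO lost their calls under some alternatives. Z00022712-1 went from 2.41, 2.00 and 2.98 to 1.77, 0.27 and 1.61 in KO, a change of -1.25 ± 0.37 (limma adjusted p = 0.0186). Z00075369-1 went from 1.84, 2.61 and 2.09 to 1.56, 0.20 and 1.17, a change of -1.20 ± 0.32 (limma adjusted p = 0.0104). KO E16.5 replicate 2 was the lowest array in both. Without it the adjusted p was 0.0934 for Z00022712-1 and 0.0532 for Z00075369-1. Without KO E14.5 replicate 3 it was 0.0828 for Z00022712-1, and without KO E14.5 replicate 2 it was 0.0534 for Z00075369-1. Z00063315-1 went from 1.22, 1.10 and 1.92 to 0.16, 0.32 and 0.53, where 1 of 3 arrays was well above background, a change of -1.08 ± 0.30 (limma adjusted p = 0.0139). Its call was lost without KO E14.5 replicate 3 (limma adjusted p = 0.0682), and with normexp and loess, where the change was -0.20 (limma adjusted p = 0.093). With a fit of only the 6 arrays compared, the adjusted p was 0.0835 for Z00022712-1 and 0.0578 for Z00075369-1. In WT Z00063315-1 was at least 1.16-fold lower at E16.5, where no array was well above background, with a limma adjusted p of 8.77e-04.

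The threshold of 1 at E18.5 cut through a continuous range. Just inside it, Z00024771-1 measured 1.66 ± 0.34 (SD, n = 3) in KO and 0.66 ± 0.34 in WT, and Z00072626-1 measured 0.02 ± 0.45 and -0.99 ± 0.53. Just outside it, Z00054747-1 measured -0.77 ± 0.26 in KO and -1.77 ± 0.31 in WT, and Z00024111-1 measured -0.21 ± 0.55 and -1.21 ± 0.04. Of the members, 38 had differences between 1 and 1.1, and 65 other probes met all other criteria with differences between 0.9 and 1.

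The size of the difference changed when normexp correction with an offset of 50 and loess, applied together, replaced the scanner software's processing. The median difference was then 0.62 in place of 1.16, and 31 of the 123 met the rule, although 120 remained higher in KO. The 15 probes with wide gaps differed by 0.18, at Z00037735-1, to 1.69, at Z00005843-1, and Z00005843-1 was the only one whose value moved by less than the spread between arrays. Besides it, only Z00024604-1 (1.67) and Z00048214-1 (1.27) kept a difference of at least 1. All the others of the 15 fell below 1, among them Z00024118-1, from 2.61 to 0.30, and Z00030503-1, from 1.84 to 0.67.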

How the data were processed

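RNA of 18 embryos was hybridised to 2-colour Agilent arrays. The scanner files were deposited as output of Agilent Feature Extraction 9.5.1.1 (per the file headers), with mean spot and local background intensities and with processed intensities already background-subtracted and dye-normalized. The deposited value table holds log10 values for 25030 probes, 81 of them among the 123, with scale, centring and direction unstated by the files used here. Against the log10 ratio of Cy3 over Cy5 it gave r = 1.000 and a slope of 1.00 on each array, plus a constant per probe of unknown origin, so scale and direction come from that comparison. For replicates 1, 2 and 3 its column medians were 2.45, 2.45, 2.45 (WT E14.5), 2.44, 2.44, 2.46 (KO E14.5), 2.48, 2.48, 2.47 (WT E16.5), 2.47, 2.46, 2.47 (KO E16.5), 2.47, 2.47, 2.47 (WT E18.5) and 2.47, 2.46, 2.48 (KO E18.5).

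The log2 ratio of processed Cy3 over Cy5 intensity was computed here from the deposited files with Python 3.11.15 and pandas 2.3.3, after leaving out control spots. The members, lists and most settings were chosen with earlier results of these data known. Steps between E14.5 and E16.5 were tested in R 4.3.3 with limma 3.58.1 (lmFit, eBayes, 1 mean per group, all 18 arrays, two-sided) over 27991 probes well above background on all 3 arrays of at least 1 group, with Benjamini-Hochberg adjustment. All 123 passed that filter, by the rule itself. The arrays are of separate embryos, and 3 per group limit the precision.

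Probes named at E18.5 were the first 15 by gap between the lowest KO and highest WT array among members that met the rule without WT E18.5 replicate 1. Named steps were the 3 largest rises and falls called in KO, and the 2 probes on either side of the threshold were named. Other named probes were chosen after their values were seen. Gene lists and cell type markers were not analysed here, since no probe is paired with a gene. Bounds come from Cy3 values after normexp, loess and scaling between arrays.

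The test was tried on simulated data with 200 of 27991 probes, drawn at random, changed and all others unchanged. In the data 29.5% of probes were called in KO and 34.3% in WT, and the members' standard errors were larger than those of all probes. The simulated rates need not hold for the data or for the members. Noise was drawn independently for each probe and array, with no shared slide or array effect, so such effects were not tried. For the KO step the test found 69% of simulated 2-fold and 86% of 4-fold changes, with 4 unchanged probes called. For the WT step it found 65% and 98%, with 15. Deviations of same-numbered arrays from their group means correlated at 0.11 to 0.22 between KO E14.5 and KO E16.5. KO E14.5 replicate 3 matched KO E16.5 replicate 1 best, not replicate 3. The numbers were taken as pairs only in an alternative fit, and the embryos differ, so the design gives no such pairing. Between WT E14.5 and WT E16.5 the deviations of same-numbered arrays correlated at -0.10 to 0.05.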

Additional observations from a re-analysis of the deposited data

How the results depend on the processing

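Of the 123 probes, 31 met the rule after normexp and loess, where their median difference was 0.62, and 71 with Cy3 alone, quantile normalized. Median centring left 78. The value table, which lists 81 of them, kept all 81. It holds the same log ratio plus a constant per probe, so this was fixed in advance and is no check. With replicates 1 and 2 alone 50 met it, and with replicate 3 alone 33, with a median difference of 1.44 and 121 of 123 higher in KO. Leaving out each E18.5 array in turn left 69 to 111 and a median of 1.09 to 1.34. Among the named E18.5 differences, 148 of 177 alternative values lay within the spread between arrays, 28 moved and 1 reversed, Z00037735-1 at -0.20 with Cy3 alone. Values with a single array left out share all other arrays with the main result, and the value table holds the same ratios. Staying within the spread was therefore largely built in for these. After normexp and loess only Z00005843-1 stayed within it. In the KO step from E14.5 to E16.5 the called members numbered 15, with 23 for Cy3 alone, 8 of 81 for the value table, 11 to 16 over left-out arrays and 13 with the replicate block (KO arrays taken as paired by number). In the WT step they numbered 25, with 14 after normexp and loess, 15 of 81 for the value table, 17 to 22 over left-out arrays and 23 with the replicate block, where the arrays share only a number. The replicate block moved neither count by 1.5 times. The alternatives without WT E18.5 replicate 1, which gave 15 and 24, were chosen after seeing the data. Of 94 alternative values for the named steps 85 kept direction and call, and 9 kept direction only. The causes were not tested, except that the value table holds fewer probes and replicate 3 alone leaves 1 array per group. For probes not well above background the log2 sizes are not firm. Normexp with its offset of 50 and loess were applied together, and their separate effects were not tested. Z00030503-1, Z00031007-1, Z00052830-1 and Z00005843-1 were well above background on all 18 arrays. With normexp and loess their E18.5 differences went from 1.84, 1.62, 1.23 and 1.70 to 0.67, 0.90, 0.62 and 1.69.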
